A study of Mus musculus with 6 samples.

Results

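The genes that write and erase methylation on lysine 4 of histone H3 (H3K4) were examined in M II oocytes of aged mice matured with or without the flavonoid quercetin. The group was chosen by gene name from what its members are known to do, and held 10 of the 53465 genes in the count table. The rule uses no measured value, but earlier results of these data were known when the members were chosen. It comprised the catalytic methyltransferases Kmt2a, Kmt2b, Kmt2c, Kmt2d, Setd1a and Setd1b, the SETD1 targeting subunit Cxxc1, the flavin-dependent demethylases Kdm1a and Kdm1b, and the JmjC demethylase Kdm5b. All oocytes came from naturally aged female Kunming (KM) mice 9 to 10 months old, with no genetic alteration named in the labels. The mice were first injected with pregnant mare serum gonadotropin. The oocytes were collected at the germinal vesicle stage, freed of cumulus cells by pipetting and matured in vitro in M16 medium. The quercetin group received 10 μM quercetin for the 16 h of maturation and the control group 0 μM, and whether control medium held the DMSO used as solvent is not given in the sources used here. Each group had 3 pools, each of 15 M II oocytes from 3 mice, so that single oocytes and single animals could not be told apart.

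Methylation of H3K4 marks promoters when it is trimethyl, and enhancers when it is monomethyl. The SET-domain enzymes of the COMPASS family each work in a complex with the same core subunits, whereas demethylation is divided between the LSD enzymes, which act on mono- and dimethyl H3K4, and the KDM5 enzymes, which act on di- and trimethyl H3K4. Growing mouse oocytes lay down unusually broad trimethyl H3K4 domains, which are removed again in the early embryo. An M II oocyte does not transcribe, and its mRNA is the store laid down during growth.

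The pools held between 7880467 and 9938743 counts in genes, and 3 counts, the upper limit that a count of 0 allows, corresponded to 0.329 to 0.376 CPM per pool, CPM being counts per 1000000 counts of the TMM-scaled library. This floor and all counting error given here cover read counting only, since PCR copies are not separate molecules. All 10 oocyte markers were expressed, with a summed level of 16152 to 20221 CPM in control pools and 17702 to 19405 CPM in quercetin pools. Among them Ooep had a log2 fold change of -0.92 (SE 0.38) with overlapping groups, and it passed the unadjusted threshold of 0.05 but not the adjusted one. Of 12 cumulus and granulosa cell markers, Foxl2, Amh and Ptx3 were at 0 in every pool, and the summed level was 82.0 to 101 CPM in control pools and 108 to 110 CPM in quercetin pools. Most of that sum was Cyp19a1, which was higher in every quercetin pool than in any control pool, as was Kitl (log2 fold changes 0.22 and 0.59). Of these Kitl passed the unadjusted threshold. They were 2 of the 5 markers tested, and 5.42% of all genes tested did not overlap in that direction. Ptgs2 was the 1 tested marker below 0, at -0.68 (SE 0.61). Tnfaip6, too low to be tested, had 0 counts in every control and 2, 8 and 4 with quercetin. The summed level of 4 leukocyte markers was 3.26 to 4.09 CPM and 3.62 to 4.24 CPM. The share of these other cells in the results below was not tested. The leading principal component, with 32.4% of the variance, did not separate the groups, since quercetin replicate 3 lay at 30.8 beside control replicate 2 at 31.3, while quercetin replicates 1 and 2 lay at -37.9 and -30.9.

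To compare transcript levels between members, CPM was divided by the length of each gene's merged exons in kilobases. The levels spanned from abundant maternal message to near absence. Kdm1b was the most abundant at 69.1 CPM per kb on average over the 6 pools, higher than 96.7% of the genes with at least 1 count. Kmt2c followed at 16.5 CPM per kb, Kdm1a at 9.46 and Cxxc1 at 6.33. A middle group was formed by Setd1a at 4.48 CPM per kb, Kmt2b at 3.32 and Kmt2d at 2.88. Setd1b at 0.407 CPM per kb and Kdm5b at 0.221 were low, with 29 to 53 and 14 to 51 counts a pool. They lay at percentiles 48.6 and 40.0 of the genes with at least 1 count. Kmt2a was almost absent at 0.0105 CPM per kb, at percentile 4.38. The order over the 10 genes was the same when the length of the longest coding transcript was used, an alternative chosen after seeing the data. How evenly long transcripts were recovered in the libraries was not tested.

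**Figure D1:**
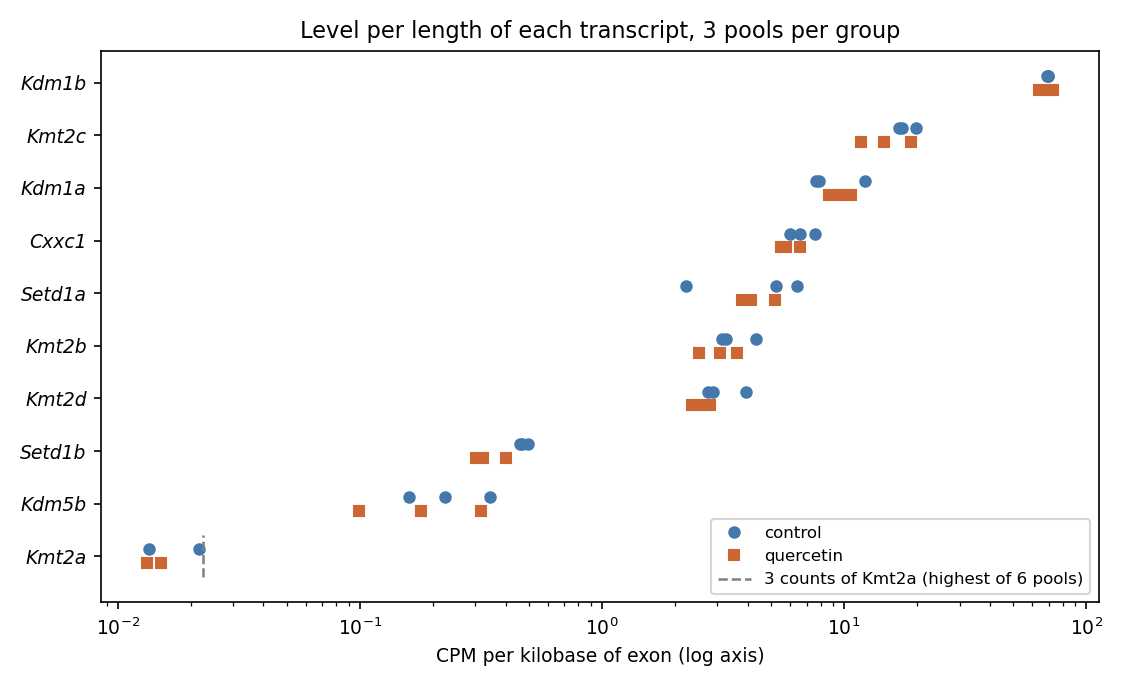
Level of each of the 10 H3K4 methylation genes in CPM per kilobase of exon (log axis), with 1 point per pool for the 3 control and 3 quercetin pools. Kdm1b lies at 64.1 to 73.1 in every pool, above the other 9, and the 2 pools in which Kmt2a had 0 counts cannot be drawn on a log axis.

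Neighbours in this order did not always differ beyond the spread of the pools. The ranges over 6 pools did not overlap between Kdm1b and Kmt2c, between Kdm1a and Cxxc1, between Kmt2d and Setd1b, or between Kdm5b and Kmt2a. The ranges of Kmt2c (11.7 to 19.7 CPM per kb) and Kdm1a (7.69 to 12.2) overlapped, although Kmt2c was the higher of the pair in 6 of 6 pools. Cxxc1 (5.49 to 7.58) was above Setd1a (2.23 to 6.37) in 6 of 6 pools, although their ranges overlapped too. Setd1a over Kmt2b, Kmt2b over Kmt2d and Setd1b over Kdm5b each held in 5 of 6 pools with overlapping ranges, so these neighbours were not separated.

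The promoter sequences of the members at the extremes of this order are shown because the CXXC domains of Cxxc1, Kmt2a and Kmt2b proteins bind unmethylated CG dinucleotides, which were counted in the members' own promoters. RefSeq gave a start site window for 7 of the 10 members, Kmt2a, Kmt2c, Kmt2d, Setd1a, Kdm1a, Kdm1b and Kdm5b. The 250 bases before the annotated start are printed 5′ to 3′ on the strand of the gene (GRCm38.p6), in lower case with every CG in capitals. Kdm1b, the most abundant member, lies on the plus strand, with its window at chr13:47043249-47043498. Kmt2c, the most abundant writer, lies on the minus strand, with its window at chr5:25498784-25499033. Kmt2a, the near-absent writer, lies on the minus strand, with its window at chr9:44881290-44881539. Kdm5b, the least abundant eraser, lies on the plus strand, with its window at chr1:134559928-134560177.
Kdm1b: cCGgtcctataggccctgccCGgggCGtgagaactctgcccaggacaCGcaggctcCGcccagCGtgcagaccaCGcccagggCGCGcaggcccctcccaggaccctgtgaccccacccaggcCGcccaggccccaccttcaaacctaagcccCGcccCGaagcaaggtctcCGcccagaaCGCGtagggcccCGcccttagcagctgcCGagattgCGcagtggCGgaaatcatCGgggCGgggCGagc
Kmt2c: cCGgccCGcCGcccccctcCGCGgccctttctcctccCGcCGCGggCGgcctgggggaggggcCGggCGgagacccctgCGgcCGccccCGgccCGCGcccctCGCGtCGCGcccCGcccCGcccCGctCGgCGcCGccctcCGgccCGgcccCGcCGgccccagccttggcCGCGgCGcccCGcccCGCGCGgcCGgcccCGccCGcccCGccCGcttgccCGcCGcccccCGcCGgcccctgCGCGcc
Kmt2a: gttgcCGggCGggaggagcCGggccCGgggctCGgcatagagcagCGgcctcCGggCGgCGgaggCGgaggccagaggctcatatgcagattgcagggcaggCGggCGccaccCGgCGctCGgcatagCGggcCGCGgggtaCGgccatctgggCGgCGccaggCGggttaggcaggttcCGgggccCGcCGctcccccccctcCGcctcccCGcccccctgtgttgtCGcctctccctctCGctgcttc
Kdm5b: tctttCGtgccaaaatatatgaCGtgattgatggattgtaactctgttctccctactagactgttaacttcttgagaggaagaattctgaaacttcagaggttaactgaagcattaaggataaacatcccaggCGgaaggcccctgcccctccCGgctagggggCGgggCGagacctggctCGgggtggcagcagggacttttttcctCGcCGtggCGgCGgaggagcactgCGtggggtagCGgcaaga

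The CG dinucleotide was counted in these windows; it reads the same on both strands. The Kmt2c window held 48, more than 99.8% of the 32851 RefSeq windows of this length, in which the median was 6 and the quartiles were 2 and 16. The near-absent Kmt2a had 29, more than the abundant Kdm1b with 22. Kdm5b had the fewest at 13, which still exceeded the count in 68.5% of windows. The other 3 members with a window, Kmt2d, Setd1a and Kdm1a, held 26, 25 and 21. The Setd1a window, at chr7:127777139-127777388, precedes the RefSeq start but lies inside the gene as annotated by GENCODE, which starts at 127776670. The order of the counts was therefore not the order of the transcript levels. Which start site the oocyte uses was not measured here, and the levels are of stored RNA.

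To ask whether quercetin changed the members' transcripts, counts were compared by the quasi-likelihood test of edgeR, adjusted by the Benjamini-Hochberg method over the 11842 genes that passed the filter on low counts. No member passed the test. Of the 10 members, 9 were tested, none passed an adjusted p of 0.05 and none passed an unadjusted p of 0.05 in either direction. Among all genes tested the adjusted threshold was passed by 0%, the unadjusted threshold by 2.14% with higher and 1.89% with lower levels in quercetin pools, and the smallest adjusted p was 0.0730, with 477 genes under an unadjusted p of 0.05. In a whole oocyte pool, fewer oocytes contributing RNA and less RNA per oocyte cannot be told apart, and neither can a shorter poly(A) tail and less mRNA where priming is from the tail.

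**Figure D2:**
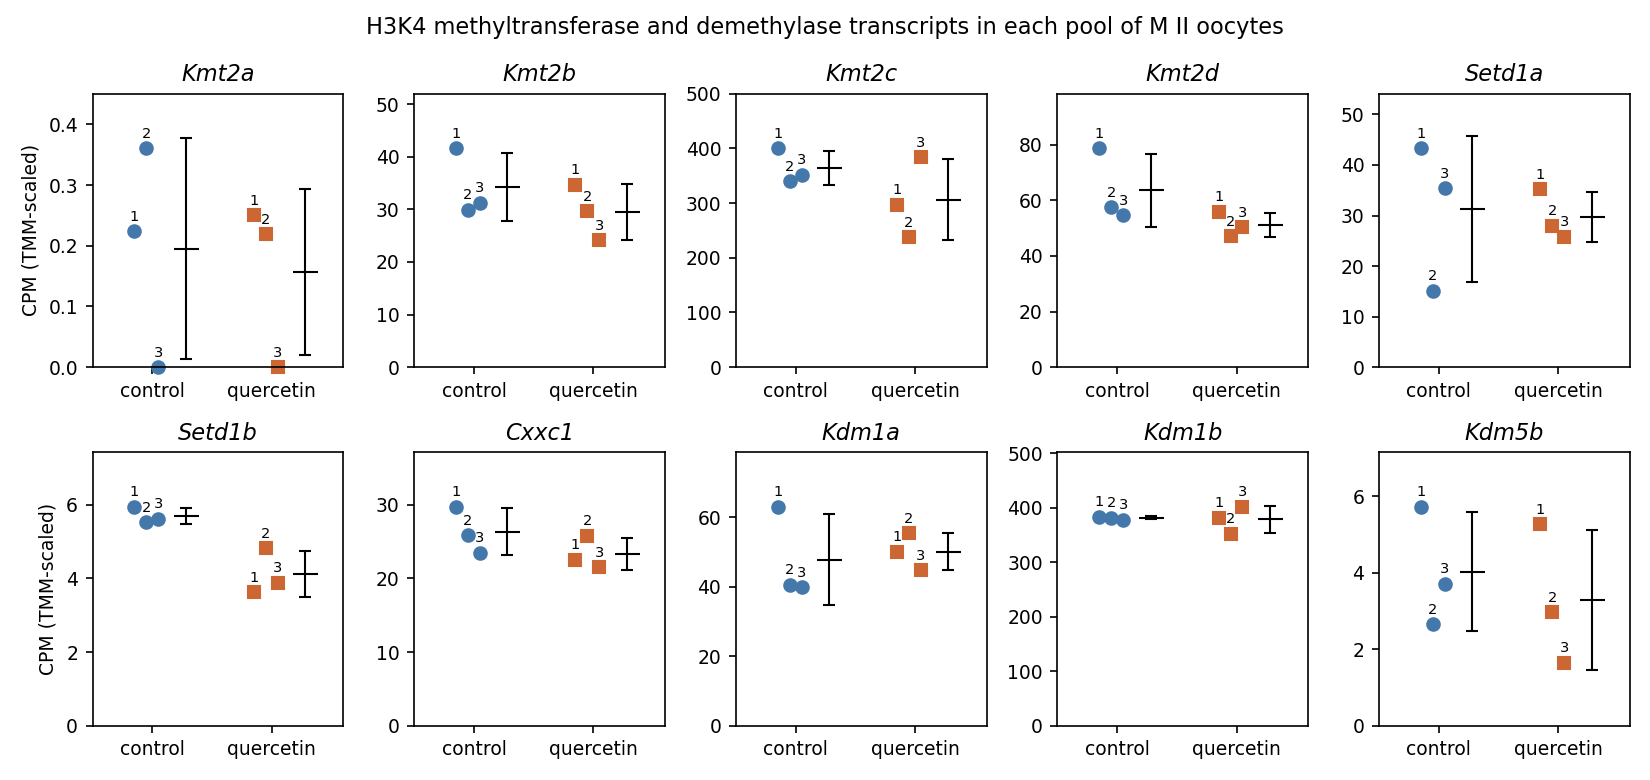
CPM in each of the 6 pools for each of the 10 H3K4 methylation genes, 1 panel a gene with its own vertical axis, control and quercetin pools side by side, and bars at the group means. In 8 of the 9 tested genes the highest point is control replicate 1.

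Kmt2c, the large enhancer methyltransferase (MLL3) that places monomethyl H3K4, was the most abundant writer. This gene (ENSMUSG00000038056) lies at chr5:25271798-25498783 on the minus strand of GRCm38. It had 3567, 2832 and 3125 counts in controls 1 to 3, against 2369, 2170 and 3264 with quercetin. The third quercetin pool lay within the control range and the other two below it. The level was 364 ± 31.8 CPM in control and 306 ± 73.6 CPM in quercetin pools (SD, n = 3 each). The log2 fold change of quercetin over control was -0.25 (SE 0.19), with a 95% interval of -0.67 to 0.17 and an adjusted p of 0.988 by edgeR, and the exact permutation test gave p = 0.3, two-sided, where the smallest p that 3 against 3 allows is 0.1. Without quercetin replicate 3 the groups did not overlap, as was so in the lower direction for 17.4% of all genes tested. The log2 fold change was then -0.44, and the unadjusted threshold of 0.05 was passed, with an adjusted p of 0.307. In that setting 8.13% of all genes tested passed the unadjusted threshold with lower levels. Part of the exons, 1.35%, is shared with the antisense gene Gm42585, which had 19 to 38 counts a pool, and without strand in the counting the reads of the pair cannot be told apart.

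Kmt2d (MLL4), the closest relative of Kmt2c and likewise an enhancer methyltransferase, was less abundant by length. Its counts were 701, 478 and 485 in the controls and 446, 429 and 427 with quercetin. All 3 quercetin counts lay below the lowest control count, but after scaling quercetin replicate 1 at 55.9 CPM lay between the control pools at 54.6 and 57.5 CPM, so the groups overlapped. Quercetin over control gave -0.32 on the log2 scale (SE 0.19, 95% interval -0.75 to 0.12), and the exact permutation p was 0.2. The gene (ENSMUSG00000048154) lies at chr15:98831669-98871204, minus strand. Kmt2c exceeded Kmt2d per kb by 4.998 to 6.33 times in control pools and by 4.97 to 7.51 times in quercetin pools, which overlapped.

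Kmt2b (MLL2) is the methyltransferase known to place most trimethyl H3K4 in growing oocytes. It lies at chr7:30568858-30588726 on the minus strand (ENSMUSG00000006307). There were 371, 249 and 278 counts in the controls and 277, 270 and 205 with quercetin, or 34.3 ± 6.40 and 29.5 ± 5.29 CPM (SD, n = 3 each). The groups overlapped widely, with a log2 fold change of -0.22 (SE 0.22, 95% interval -0.72 to 0.28). Kmt2a (MLL1, ENSMUSG00000002028, chr9:44803355-44881296, minus strand), the paralogue best known for maintaining Hox gene expression, gave 2, 3 and 0 counts in the controls and 2, 2 and 0 with quercetin. These 9 reads in all were too few for a test, and a difference was not detectable at this depth. Per kb, Kmt2a lay between 0 and 0.0216 CPM and Kmt2b between 2.51 and 4.34 CPM over the 6 pools, and these ranges were far apart.

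Setd1a and Setd1b are the paralogous catalytic subunits of the SETD1 complexes, which carry out much of the trimethylation of promoters in most cells. Setd1a (ENSMUSG00000042308, chr7:127776670-127800122, plus strand) had 386, 126 and 315 counts in the controls and 281, 255 and 219 with quercetin. Its control pools differed from each other more than the groups did, from 15.1 CPM in control replicate 2 to 43.3 CPM in control replicate 1. The log2 fold change of -0.08 (SE 0.35, 95% interval -0.87 to 0.71) rested on single pools, being 0.23 without control replicate 1 and -0.41 without control replicate 2. Its exons overlap the same-strand gene Gm49388 (0 to 2 counts a pool) and the opposite-strand 9430064I24Rik (9 to 15 counts) over 52.3% of their length, so the counting could have split or lost its reads.

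Setd1b (ENSMUSG00000038384, chr5:123142193-123168629, plus strand), which is required in growing oocytes, was the one member whose pools did not overlap between the groups. It had 53, 46 and 50 counts in the controls and 29, 44 and 33 with quercetin. The control level was 5.70 ± 0.219 CPM and the quercetin level 4.11 ± 0.629 CPM (SD, n = 3 each), a fold of 0.723. On the log2 scale this was -0.47 (SE 0.26, 95% interval -1.06 to 0.12) with an adjusted p of 0.988 by edgeR. The exact permutation p was 0.1, the smallest that 3 against 3 can give. Over all genes tested, groups did not overlap in the lower direction in 5.17% and in the higher direction in 5.42% of genes, and among the members 1 of 9 and 0 of 9 did so. At these counts reading error alone has a coefficient of variation of 15.3%. The per-kb ratio of Setd1a to Setd1b was 4.86 to 12.9 in control pools and 10.3 to 17.2 in quercetin pools, and these overlapped.

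Cxxc1 (CFP1) carries the CXXC zinc finger that brings SETD1 to unmethylated CG-rich promoters, and its loss in oocytes is known to lower trimethyl H3K4. This gene (ENSMUSG00000024560) lies on the plus strand at chr18:74216124-74221496. It gave 265, 215 and 209 counts in the controls and 180, 235 and 183 with quercetin. Quercetin replicate 2 at 25.8 CPM lay level with control replicate 2 at 25.8 CPM, and the other quercetin pools were below all controls. Its log2 fold change was -0.18 (SE 0.19, 95% interval -0.62 to 0.26), with an exact permutation p of 0.2.

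Kdm1b (LSD2, ENSMUSG00000038080, chr13:47043499-47085279, plus strand) is the demethylase that growing oocytes need in order to set maternal DNA methylation imprints. It was also the steadiest member. Its counts were 3420, 3177 and 3362 in the controls and 3047, 3209 and 3413 with quercetin. The level was 381 ± 2.82 CPM in control and 378 ± 25.03 CPM in quercetin pools (SD, n = 3 each), and the highest pool was only 1.14 times the lowest. The coefficient of variation was 0.738% among controls, below the 1.75% that read counting alone gives, and 6.61% among quercetin pools. The log2 fold change was -0.01 (SE 0.13), and the 95% interval of -0.30 to 0.27 was the narrowest of the 9. Over 9.19% of its exons it overlaps Dek on the opposite strand, which had 2452 to 2967 counts a pool.

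Kdm1a (LSD1, ENSMUSG00000036940, chr4:136550540-136602723, minus strand), the demethylase of the CoREST complex, is a maternal factor needed at the start of embryonic development. It had 562, 338 and 354 counts in the controls and 400, 506 and 381 with quercetin. Control replicate 1 at 63.1 CPM was above all quercetin pools and the other controls at 40.6 and 39.8 CPM below all of them. It was the one member with a fold change above 0, at 0.07 on the log2 scale (SE 0.22, 95% interval -0.43 to 0.57). Without control replicate 1 this was 0.32 and the groups did not overlap, as was so in the higher direction for 10.4% of all genes tested. Kdm1b exceeded Kdm1a per kb by 5.74 to 8.95 times in control and by 5.98 to 8.44 times in quercetin pools.

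Kdm5b (JARID1B, ENSMUSG00000042207, chr1:134560171-134635285, plus strand) removes trimethyl H3K4 and takes part in clearing the broad oocyte domains after fertilisation. It gave 51, 22 and 33 counts in the controls and 42, 27 and 14 with quercetin. The groups overlapped, from 2.64 to 5.72 CPM in controls and from 1.65 to 5.26 CPM with quercetin, with 3.47 times between the highest and the lowest pool in CPM. The log2 fold change was -0.30 (SE 0.46), and its 95% interval of -1.34 to 0.75 was the widest among the members and included a fall of over 2-fold.

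**Figure D3:**
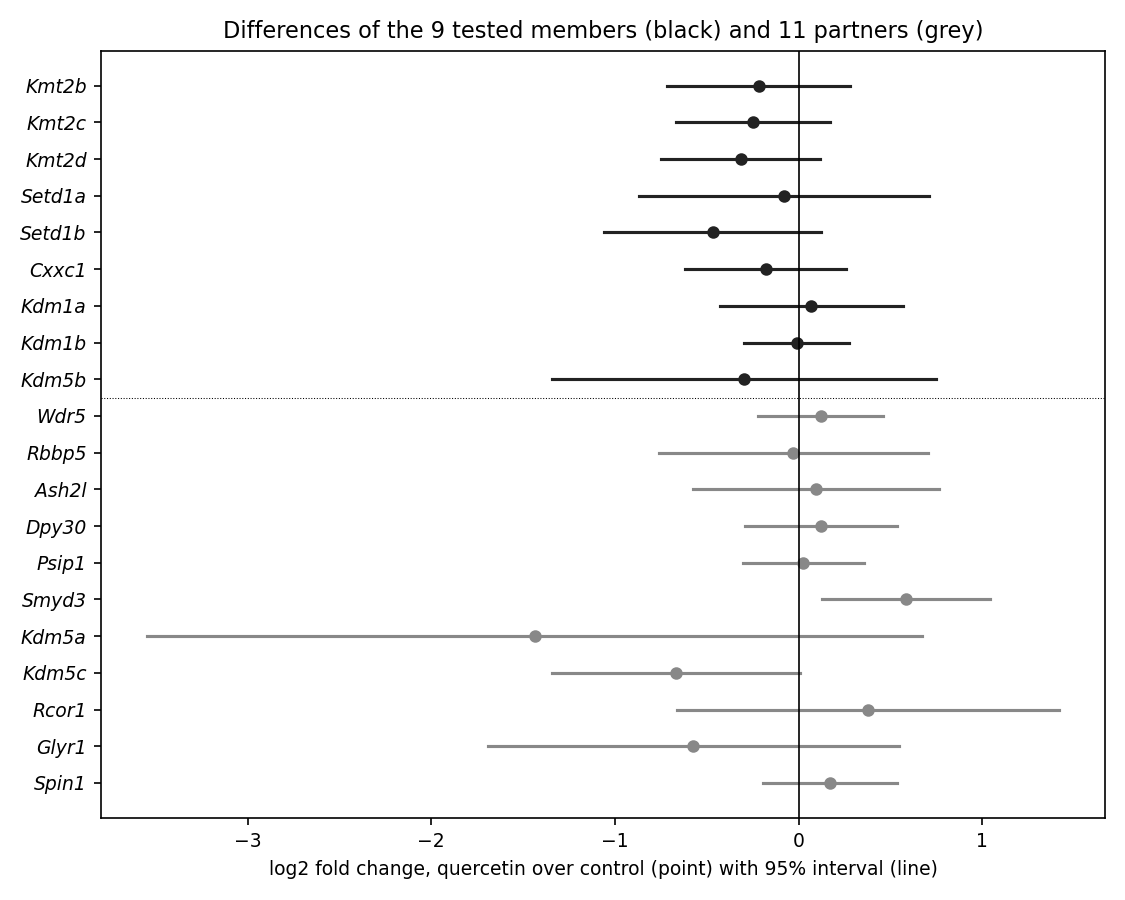
Log2 fold change of quercetin over control with 95% intervals (edgeR, 3 pools a group) for the 9 tested members in black and 11 partner genes in grey. All 9 member intervals include 0, and among the partners the interval of Smyd3, 0.13 to 1.04, lies above 0. Kdm5a, Kdm5c and Glyr1 were named by symbol and had the lowest fold changes of the 36 tested partners.

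The direction of the members was examined next. The fold change was below 0 in 8 of 9 members, including all 5 tested methyltransferases, with a median of -0.22 on the log2 scale, compared with -0.026 over all genes tested, of which 53.6% were below 0. These values moved with single pools, the median being -0.05 without control replicate 1 and -0.09 without quercetin replicate 3, each with 6 of 9 members below 0, and -0.30 without control replicate 2, with 9 of 9. Control replicate 1 was the highest of the 6 pools in 8 of 9 members, while it was the highest in 16.9% of all genes tested and in 22.2% of 36 tested partner genes. Among the 3 control pools it was the highest in 9 of 9 members, compared with 36.1% of all genes and 50.0% of the partner genes. Without it the log2 fold change was -0.05 for Kmt2b, -0.17 for Kmt2c, -0.13 for Kmt2d, -0.08 for Cxxc1, 0.23 for Setd1a and 0.05 for Kdm5b. Setd1b was at -0.43. Without quercetin replicate 3 in its place, Kmt2b was at -0.09, Kmt2c at -0.44, Setd1a at 0.01 and Kdm5b at 0.02. Kmt2d was then at -0.30, Setd1b at -0.42, Cxxc1 at -0.12, Kdm1a at 0.14 and Kdm1b at -0.05. Without quercetin replicate 2 Kmt2c was at -0.10. With library size only, 9 of 9 members were below 0, with a median of -0.31. DESeq2, limma-voom, size factors and the replicate block each gave 7 of 9, with medians of -0.22 to -0.20. When pools were scaled by library size alone, control replicate 1 was still the highest in 8 of 9 members, against 20.8% of all genes, and the highest control in 8 of 9. The part of this pool's RNA or library in the members' direction was not tested.

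The members' shares within each pool were then compared. Kmt2c made up 54.0% to 67.4% of the summed methyltransferase level per kb over the 6 pools, and Kdm1b made up 84.8% to 89.7% of the summed demethylase level. The summed demethylase level per kb was 76.7 to 82.4 in control and 74.95 to 81.9 in quercetin pools. That of the methyltransferases was 34.9, 25.5 and 29.0 in control and 26.5, 21.7 and 28.1 in quercetin pools. The ratio of the former to the latter was 2.36, 3.04 and 2.65 in control and 2.99, 3.45 and 2.91 in quercetin pools. The summed level of the 3 erasers thus exceeded that of the 6 writers in every pool, and the ratio overlapped between the groups. The sums cover the members only, so Kdm5a and Kdm5c are not in them. Lengths were unlike, with merged exons of 20.3 kb for Kmt2c and 19.9 kb for Kmt2d against 5.495 kb for Kdm1b and 5.18 kb for Kdm1a. The part of transcript length, or of the exon overlap at Setd1a, in this excess was not tested.

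**Figure D4:**
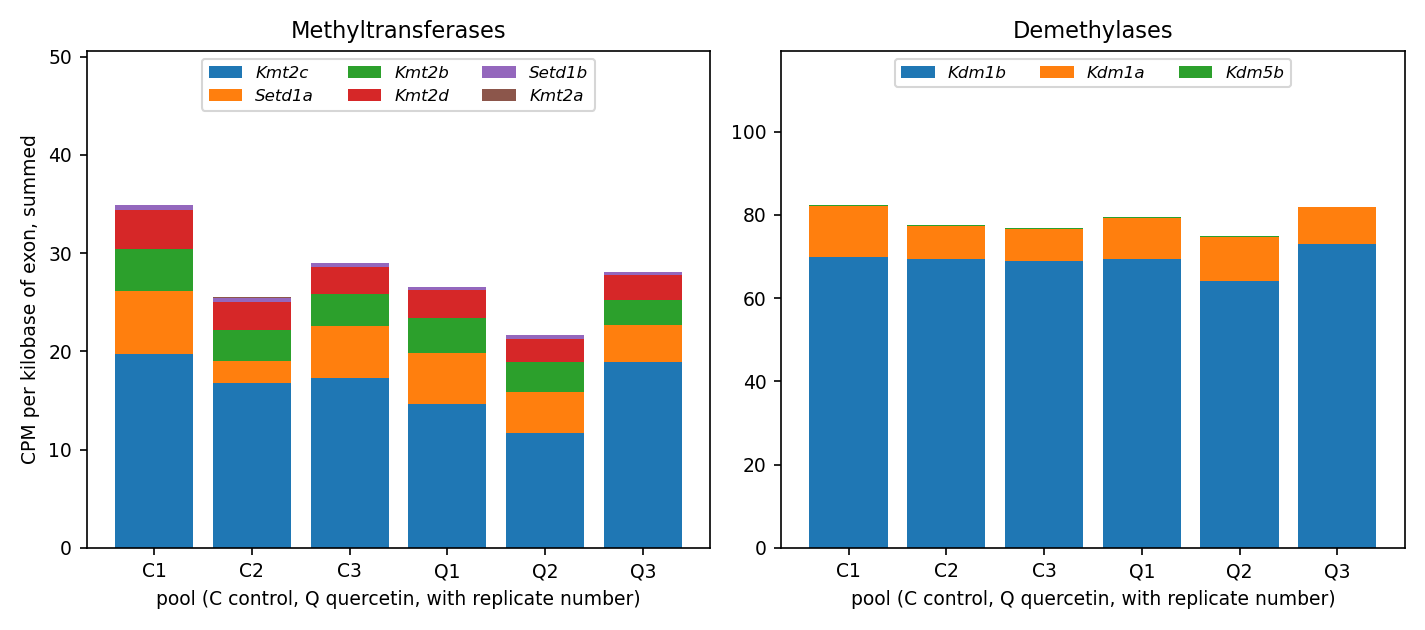
Summed level per kb of the writers and of the erasers in each of the 6 pools, stacked by gene in CPM per kb. Kmt2c is the largest block among writers (54.0% to 67.4%) and Kdm1b among erasers (84.8% to 89.7%).

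The methyltransferases and LSD enzymes work in complexes, and 46 further genes of H3K4 methylation (subunits, other enzymes and readers, here called partner genes) were examined, of which 36 were tested. One, Smyd3, passed the unadjusted threshold with a higher level and none with a lower level, compared with 2.14% and 1.89% of all genes tested. None passed after adjustment. Kdm5a and Kdm5c passed the unadjusted threshold with lower levels under limma-voom and with a replicate block, and Kdm5a also without quercetin replicate 1. Over all genes, 270 of 11842 did so under limma-voom, 270 of 11842 with the block, and 209 of 12374 without quercetin replicate 1. Men1 passed it with lower levels with no filter and without control replicate 1, as did 406 of 24476 and 222 of 12227 genes. Without quercetin replicate 3, Glyr1, Kdm5c, Men1 and Taf3 passed it with lower levels. Chd1, Dpy30 and Smyd3 then passed it with higher levels. In that setting 996 of 12258 genes passed lower and 567 higher. Smyd3 did not pass the unadjusted threshold without control replicate 2 or without quercetin replicate 1. The fold change was above 0 in 14 and below 0 in 22, with a median of -0.064 on the log2 scale. Groups did not overlap in the higher direction for Smyd3 and Chd1 and in the lower direction for Kdm5c. These were 2 and 1 of 36 genes, compared with 5.42% and 5.17% of all genes tested. Chd1, a remodeller that reads trimethyl H3K4, was named after its values were seen. It had 964, 868 and 840 counts in the controls and 1151, 1138 and 933 with quercetin, with a log2 fold change of 0.30 (SE 0.15).

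The 4 core subunits that all COMPASS complexes share were measured in every pool. Dpy30 was by far the most abundant, with 1267 CPM per kb on average. It had 12352, 11539 and 12474 counts in the controls and 12937, 16442 and 9466 with quercetin, so the groups overlapped (log2 fold change 0.12, SE 0.18). Wdr5, the scaffold that joins the core to the enzymes, had 699, 608 and 724 counts in the controls and 684, 688 and 781 with quercetin (0.12, SE 0.15). Rbbp5 and Ash2l, which activate the SET domain, had log2 fold changes of -0.03 (SE 0.32) and 0.09 (SE 0.30). None of the 4 passed either threshold, and the fold change was above 0 in 3 of them.

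Of 10 further subunits or tethers that only some of the complexes have, 8 were tested, 3 with fold changes above 0 and 5 below. Psip1, which tethers KMT2A and menin to chromatin, was the most abundant at 140.0 CPM per kb (log2 fold change 0.03, SE 0.15), although 14.8% of its 31-base words occur in other genes. Men1, which encodes menin, had 8, 21 and 13 counts in the controls and 2, 5 and 8 with quercetin and was too low to be tested. Among 7 other methyltransferases, 3 were tested. Smyd3, which methylates histones and cytoplasmic kinases, had 588, 419 and 620 counts in the controls and 920, 762 and 682 with quercetin. Its level was 62.0 ± 10.3 CPM and 93.0 ± 19.3 CPM (SD, n = 3 each), a log2 fold change of 0.58 (SE 0.20) with an adjusted p of 0.988 by edgeR.

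The other KDM5 demethylases, which remove trimethyl H3K4 as Kdm5b does, were examined pool by pool. Kdm5a and Kdm5c were named by symbol, in lists made with earlier results of these data known. Their log2 fold changes were the lowest of the 36 tested partners. Kdm5c had 94, 84 and 95 counts in the controls and 51, 39 and 77 with quercetin, with a log2 fold change of -0.67 (SE 0.30, 95% interval -1.34 to 0.01). Its groups did not overlap, at 10.4 ± 0.308 and 6.58 ± 2.40 CPM (SD, n = 3 each), and the adjusted p by edgeR was 0.988. Kdm5a had 171, 127 and 171 counts in the controls but 145, 4 and 12 with quercetin. Quercetin replicate 1 at 18.2 CPM was thus within the control range, and replicates 2 and 3 at 0.439 and 1.41 CPM were far below it. Its log2 fold change was -1.44 (SE 0.93, 95% interval -3.55 to 0.67) with an adjusted p of 0.988 by edgeR. DESeq2 gave -1.41 and no adjusted p. Without quercetin replicate 1 the log2 fold change was -4.27 with an adjusted p of 0.0246 by edgeR, and 7 of 12374 genes passed after adjustment. Since the pool left out there is the one unlike the other 2, that value does not measure the difference between the groups. Without quercetin replicate 3 the log2 fold change of Kdm5a was -0.96 with an adjusted p of 0.719 by edgeR. Without single pools it ranged from -4.27 to -0.87. The Y-linked Kdm5d had 0 to 2 counts a pool.

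Of 9 partners of the LSD enzymes, 8 were tested. Rcor1 (CoREST), the scaffold of KDM1A, was the most abundant at 13.6 CPM per kb and varied widely within groups, with 537, 864 and 339 counts in the controls and 1050, 342 and 797 with quercetin (log2 fold change 0.38, SE 0.46). Glyr1 (NPAC), the cofactor of KDM1B, had 153, 141 and 166 counts in the controls and 55, 47 and 199 with quercetin. As for Kmt2c, the third quercetin pool was not below the controls while the other two were. The log2 fold change of Glyr1 was -0.57 (SE 0.49), and without quercetin replicate 3 it was -1.55 with an adjusted p of 0.145 by edgeR. In that setting 8.13% of all genes tested passed the unadjusted threshold with lower levels. Without other single pools the log2 fold change of Glyr1 reached -0.21. Of 12 readers of methylated H3K4, 11 were tested, 4 with fold changes above 0 and 7 below. The reader Spin1, abundant in oocytes, had 72751 to 102266 counts a pool, 2263 CPM per kb on average, and a log2 fold change of 0.17 (SE 0.16).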

How the data were processed

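Smart-seq HT libraries of 6 oocyte pools were sequenced by the authors on an Illumina NovaSeq. The deposited values are raw read counts per gene, not normalized. The study's methods name Hisat2 and GRCm38 with Ensembl release 91, whereas the submitters' processing notes name CASAVA 1.8, TopHat2 2.0.6 and mm10, and this was not resolved. The counting program, strand setting and treatment of multi-mapped reads are not given in the sources used here.

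Groups were taken from the labels. From the counts, edgeR 4.0.16 (R 4.3.3) with limma 3.58.1 gave TMM-scaled CPM and the quasi-likelihood test of quercetin against control over 3 and 3 pools, after a filter on low counts (minimum count 10) that kept 11842 of 53465 genes, 24476 of which had at least 1 count. P-values were adjusted by the Benjamini-Hochberg method. TMM factors were 0.920 to 1.06. Exact two-sided permutation tests used log2 CPM with a prior count of 2. Nothing states that pools came from separate cultures, so p-values measure the spread between these pools. Lengths, overlaps and coordinates came from GENCODE M21, and promoter windows from RefSeq. Symbols were found for 53274 identifiers and coordinates for 53360. The script was tested on simulated data. Alternatives were DESeq2 1.42.0 and its size factors, limma-voom, library size only, no filter, leaving out each pool, and a replicate block.

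The members and lists were chosen with earlier results of these data known. Partners named by rule were the 4 core subunits, any partner past the unadjusted threshold, and the most abundant gene of each other list. Kdm5a, Kdm5c and Glyr1 were named by symbol whatever their p. They had the lowest log2 fold changes of the 36 tested partners (-1.44, -0.67 and -0.57), so they are not an unselected sample of the partners. Chd1, Men1, Taf3 and Kdm5d were named outside this rule, after their values were seen.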

Additional observations from a re-analysis of the deposited data

How the results depend on the processing

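Over all genes, adjusted calls numbered 0 with the reported fit, 17 with DESeq2, 3 with no filter and 0 to 7 when single pools were left out. Genes passing the unadjusted threshold with higher levels numbered 253, 145 with library size only and 117 to 567 without single pools. Those with lower levels numbered 224, 362 with library size only, 406 with no filter and 124 to 996 without single pools. Scaling by library size alone moved the median log2 fold change by -0.085, and the share of these calls that were higher went from 53.0% to 28.6%, and to 59.5% with size factors.

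For the members, the count passing the unadjusted threshold with lower levels was 0 to 1 without single pools (Kmt2c without quercetin replicate 3). Without single pools, non-overlapping members with higher levels numbered 0 to 1 (Kdm1a without control replicate 1) and those with lower levels 1 to 3, while over all genes tested the shares were 8.13% to 14.4% higher and 8.03% to 17.4% lower. With library size only, 2 members (Kmt2d and Setd1b) and 7.30% of all genes did not overlap in the lower direction. Some members' fold changes crossed 0. Setd1a was 0.0303 with limma-voom and 0.0275 with the replicate block, and ranged from -0.41 to 0.23 without single pools. Kdm1a was -0.0233 with library size only and ranged from -0.0379 to 0.32. Kdm1b was 0.00634 with DESeq2 and 0.00636 with size factors and ranged from -0.0540 to 0.0404, and Kdm5b ranged from -0.80 to 0.0451. The cause was not tested. Kmt2b (-0.35 to -0.05), Kmt2c (-0.44 to -0.10), Kmt2d (-0.41 to -0.13), Setd1b (-0.60 to -0.39) and Cxxc1 (-0.26 to -0.08) stayed below 0 in those fits. Same-numbered pools correlated at 0.296, 0.101 and -0.0303 in their deviations from the group means. Whether they share anything beyond the replicate number is not given in the sources used here, and these values cannot decide it. With the replicate block, 0 genes were called after adjustment, and 222 higher and 270 lower passed the unadjusted threshold.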
